A study of Mus musculus with 10 samples.

Results

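The genes Mid1, Tada1, Diablo, Ubn1, Dyrk1b, Copb2, Tuft1 and Tmem218 had an ATAC-seq peak at a gene end in 4 of 4 wild-type tumour libraries, with a high median rank, and in 0 of 3 libraries with a single floxed Arid1a allele and Cre. They are 8 of 21631 protein-coding genes on the autosomes and X. ATAC-seq marks open chromatin by where a transposase cuts. A gene was called in a library where a deposited peak lay within 1000 bp of either end of the gene, and peaks were ranked by p-value within their own list. The median WT rank was high for each gene, but single calls were not always: Diablo in WT 2 and Tada1 in WT 3 ranked below the middle of their lists. The genes were chosen by their WT and Het calls and WT ranks, so these values are described and not tested. Of the 9218 genes called in any library, 475 had the same pattern of 4 WT and 0 Het calls, which is 5.15%. Of the 5067 genes called in 4 of 4 WT libraries they were 9.37%. The Mid1 peak has a counterpart on the Y chromosome that was called in 3 of 3 Het libraries. The Mid1 pattern therefore holds only for peaks placed on X, and not where both copies are counted.

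The tissue was frozen liver tumour from FVB mice in which the LAP promoter drives the tetracycline transactivator (LAP-tta) and a TRE-MYC transgene supplies MYC, collected at death after doxycycline was withdrawn. WT mice (4 libraries, about 55 days old) carried Arid1a fl/fl without Cre. Het mice (3 libraries, about 70 days) carried Arid1a fl/+ with Alb-cre, and Homo mice (3 libraries, about 100 days) carried Arid1a fl/fl with Alb-cre. All 10 tumours carried LAP-tta and TRE-MYC, and all carried a floxed Arid1a allele. The albumin promoter that drives Cre acts in hepatocytes, and which other cells of the tumour kept their floxed alleles was not tested. Genotype, the presence of Cre and age change together, and their parts cannot be told apart. The labels do not say that each library came from a separate mouse, so p-values measure only the spread between these libraries.

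Arid1a encodes a DNA-binding subunit of the BAF (SWI/SNF) complex, which slides and ejects nucleosomes and keeps many promoters and enhancers open. Promoters of widely expressed genes are usually open and rich in CpG, and several genes here are of that kind. Tada1 and Ubn1 encode chromatin proteins, Dyrk1b and Mid1 signalling enzymes, Diablo a regulator of cell death, Copb2 a coat protein of transport vesicles and Tmem218 a protein of the primary cilium. Tuft1 encodes tuftelin, first described in tooth enamel and also made in other tissues.

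The depth of the lists differed between groups. Background pileup, the mean number of tags over a base, was 0.985 to 1.745 in WT, 0.655 to 0.738 in Het and 0.464 to 1.608 in Homo. WT lists held 6731 to 9526 regions, Het lists 2583 to 5796, and Homo 1, Homo 2 and Homo 3 held 3863, 1748 and 9587. In the 647 regions present in all 10 lists, summit signal relative to the WT median was 0.743, 0.680 and 0.624 in the Het libraries and 0.738, 0.493 and 1.18 in the Homo libraries. Het libraries were thus shallower than every WT library, and Homo 3 was as deep as WT. Of 10 hepatocyte markers 6 were called in any library, 1 to 6 in each WT list, 1 in each Het list and 0 to 5 in the Homo lists. Endothelial, stellate and lymphocyte markers (5 each) were called in none, and Spi1 (Homo 3), Epcam (WT 3 and WT 4) and Nfe2 (WT 1, WT 2 and Homo 3) were the other calls. The labelled liver origin therefore rests on few called markers, and their part in the results was not tested.

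RefSeq promoter windows (GRCm38.p6, 250 bases before to 50 after a start site) matched 6 of the 8 genes, not Tada1 and Tuft1. For 5 of the 6, all but Mid1, a window overlapped the peak region. The sequences shown are the stretches upstream of 4 start sites that lay in the merged peak regions called in 4 of 4 WT and 0 of 3 Het libraries, written 5′ to 3′ along the gene. Capitals mark matches to GGGCGG (GC box), CCAAT (NFY box), CACGTG (MYC E-box), TGACGTCA (CRE) and CCGGAAG (ETS) on either strand.

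Diablo (chr5:123524165-123524414, minus strand): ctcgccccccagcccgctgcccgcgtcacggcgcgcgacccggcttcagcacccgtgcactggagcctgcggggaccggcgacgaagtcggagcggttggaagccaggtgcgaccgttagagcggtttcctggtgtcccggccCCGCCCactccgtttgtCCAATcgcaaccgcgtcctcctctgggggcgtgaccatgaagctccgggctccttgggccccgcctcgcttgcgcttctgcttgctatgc
Ubn1 (chr16:5049911-5050056, plus strand): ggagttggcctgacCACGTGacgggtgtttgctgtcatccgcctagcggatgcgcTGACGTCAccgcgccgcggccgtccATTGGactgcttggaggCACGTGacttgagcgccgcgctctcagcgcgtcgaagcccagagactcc
Copb2 (chr9:98563481-98563730, plus strand): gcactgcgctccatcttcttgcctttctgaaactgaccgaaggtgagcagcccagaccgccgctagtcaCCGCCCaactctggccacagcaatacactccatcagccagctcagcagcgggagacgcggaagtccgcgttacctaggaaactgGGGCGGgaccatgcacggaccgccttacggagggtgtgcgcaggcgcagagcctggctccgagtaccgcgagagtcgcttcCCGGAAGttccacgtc
Tmem218 (chr9:37207973-37208222, plus strand): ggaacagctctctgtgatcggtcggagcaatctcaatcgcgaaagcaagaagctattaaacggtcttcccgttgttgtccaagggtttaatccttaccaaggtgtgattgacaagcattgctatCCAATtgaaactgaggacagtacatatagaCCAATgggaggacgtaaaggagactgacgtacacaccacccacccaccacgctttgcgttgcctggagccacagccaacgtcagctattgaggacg

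The Ubn1 stretch is the whole interval between its start and that of Glyr1, a gene on the other strand whose start lies 147 bp away. It holds CACGTG, the sequence bound by MYC with its partner MAX, at 2 places and TGACGTCA between them. CACGTG was present in 7.15% and TGACGTCA in 1.79% of 32851 RefSeq windows. The Ubn1 window also held the YY1 motif, beyond the Glyr1 start, which 0.633% of windows hold. GGGCGG was found in 5 of the 5 genes with an overlapping window, against 35.7% of all windows. CCAAT was found in 3 of the 5, against 37.4%, and CCGGAAG in 2, against 8.86%. The shares count windows and not genes, and include genes with no peak here. They are therefore not matched to these open gene ends. The Diablo window was 71.7% G and C with 42 CpG, while the Tmem218 windows were 48.3% and 50% G and C, near the median of 52.7% for all windows. The 5 promoters therefore differ widely in base composition. A match is a description of letters and was tied to no factor here.

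Tada1 encodes a subunit of SAGA, a coactivator complex that acetylates histones. Its peak covered the lower end of the gene (mm10 chromosome 1, 166378781 to 166379653, gene 166379167 to 166393621). Fold over background at the summit, as the authors' peak caller gave it, was 8.90, 8.28, 6.16 and 11.1 in WT 1 to WT 4. The summits held 38, 26, 16 and 36 tags. By fold WT 4 was the highest, by tags WT 1, and WT 3, the shallowest WT library, was the lowest by both. The WT 3 peak also ranked lowest, at percentile 47.7 of its list against 87.4 to 97.7 in the others. Het 1 to Het 3, Homo 1 and Homo 2 had no peak. Homo 3 had a fold of 8.21 with 42 tags, inside the WT fold range.

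Ubn1 encodes ubinuclein, a subunit of the HIRA chaperone that deposits histone H3.3. The peak lay over the lower end of the gene (chromosome 16, 5049525 to 5050356, gene 5050057 to 5086289) and is shared with the end of Glyr1, so it cannot be given to either gene alone. Folds in WT 1 to WT 4 were 8.37, 7.27, 6.21 and 9.94, from 33, 23, 18 and 31 tags. As for Tada1, WT 3 was the lowest and WT 4 the highest by fold. Homo 3 had 8.29 with 30 tags, inside the WT range, and Homo 1 had 5.19 with 13 tags, below it. The Homo 1 peak was 216 bp wide against 333 to 601 bp in WT. Its summit lay 262 bp inside the gene, while WT summits lay at -168 to -19 bp, negative being outside the gene. The Homo 1 call is therefore narrower, weaker and displaced from the WT summits.

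Dyrk1b encodes a kinase that keeps cells in quiescence. Its peak (chromosome 7, 28179735 to 28180246, gene 28179447 to 28197910) had its summit 452 to 481 bp inside the gene and lay between the RefSeq start sites at 28179483 and 28180316. The region is within 1000 bp of the higher end of Fbl, which encodes the methyltransferase of nucleolar rRNA, so Fbl has the same calls. Folds were 8.56, 7.57, 6.42 and 7.83 in WT 1 to WT 4, from 31, 22, 18 and 30 tags. Homo 3 had 6.46 from 22 tags, at percentile 42.1 of its list against 61.2 to 88 in WT. Its fold was inside the WT range but near its lower end, and its rank was below all 4 WT ranks.

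Mid1 encodes a microtubule-bound ubiquitin ligase that acts on protein phosphatase 2A. Its peak did not cover a gene end: it lay 393 to 818 bp beyond the higher end (chromosome X, 169991191 to 169991616, gene 169685199 to 169990798). Mid1 lies on the plus strand, so this is the end away from its start. The closest RefSeq start site lies 111572 bp before the region. Folds were 6.28, 6.29, 5.98 and 6.81 in WT 1 to WT 4, from 52, 41, 35 and 51 tags. These were the most tags and the lowest mean fold of the 8 genes. The local background was 4.26 to 5.10 times that of the genome in WT, against 1.10 to 2.11 at the other genes. Homo 3 had a fold of 7.08 from 49 tags, above the WT folds and inside the WT tags.

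A partial copy of Mid1 on the Y chromosome, annotated as the pseudogene Mid1-ps1 (90753046 to 90765072), bears directly on the Mid1 pattern. A peak lay at a like distance beyond the end of the copy, with summits at 504 to 659 bp against 574 to 651 bp on X. On Y it was called in 4 of 4 WT, 3 of 3 Het and 1 of 3 Homo libraries. Tags on Y were 51, 29, 30 and 56 in WT, 23, 31 and 22 in Het and 46 in Homo 3. The Het lists thus placed this peak at the Y position and not at the X position. Counted over both copies, Mid1 had a peak in 3 of 3 Het libraries, and 7 genes kept the pattern of 4 WT and 0 Het calls. How reads were divided between the copies was not tested, so a call at either position does not show which copy was open. At a site further beyond the end, WT 3 had the same fold of 4.71 from 35 tags on X and on Y.

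**Figure D1:**
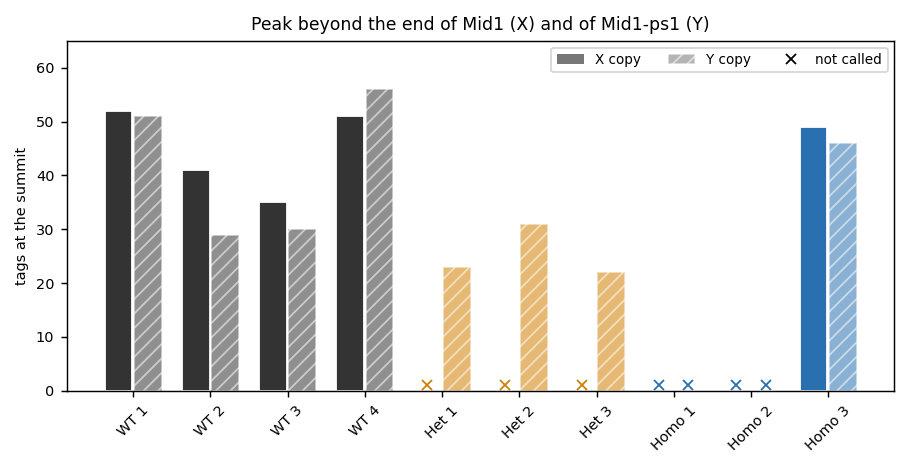
Tags at the summit of the peak beyond the end of Mid1 on X and of its copy on Y, for each of the 10 libraries, with crosses for absent calls. Het libraries held 22 to 31 tags on Y and no call on X, while WT libraries and Homo 3 had calls on both.

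Diablo encodes Smac, which leaves mitochondria in dying cells and blocks the inhibitors of apoptosis. Its peak covered the higher end of the gene (chromosome 5, 123523968 to 123524611, gene 123511330 to 123524164). Folds were 9.12, 6.30, 9.21 and 8.44 in WT 1 to WT 4, from 28, 15, 27 and 26 tags. WT 2 stood apart: its peak was 266 bp wide against 540 to 644 bp, and ranked at percentile 30.8 of its list against 85.7 to 96.1. Homo 3 had a fold of 11.3 from 38 tags, above all 4 WT libraries.

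Copb2 encodes the β′ subunit of COPI, the coat that returns vesicles from the Golgi to the endoplasmic reticulum. Its peak (chromosome 9, 98563462 to 98563916, gene 98563731 to 98588375) was the most fixed in place, with WT summits at -74 to -61 bp from the lower end, negative being outside the gene. Folds were 7.88, 8.89, 8.62 and 7.95 in WT 1 to WT 4, from 25, 23, 19 and 20 tags. Homo 3 had 8.12 from 24 tags, inside the WT range of both, with its summit at -167 bp.

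Tuft1 had a peak at its higher end (chromosome 3, 94658619 to 94659095, gene 94612753 to 94658872). Folds were 6.59, 8.53, 7.52 and 8.61 in WT 1 to WT 4, from 23, 21, 19 and 30 tags. Homo 3 had 10.5 from 38 tags, above all 4 WT libraries. Homo 3 alone had a further peak 108 bp away.

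Tmem218 encodes a transmembrane protein of the transition zone at the base of the cilium. Its peak covered the lower end of the gene (chromosome 9, 37207950 to 37208566, gene 37208223 to 37223228). Folds were 9.24, 6.71, 7.66 and 9.45 in WT 1 to WT 4, from 28, 19, 16 and 23 tags. Homo 3 had 9.38 from 29 tags, inside the WT fold range. Homo 1 had 5.75 from 10 tags over 204 bp, below the WT range of 355 to 543 bp. No peak was listed for Homo 2.

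**Figure D2:**
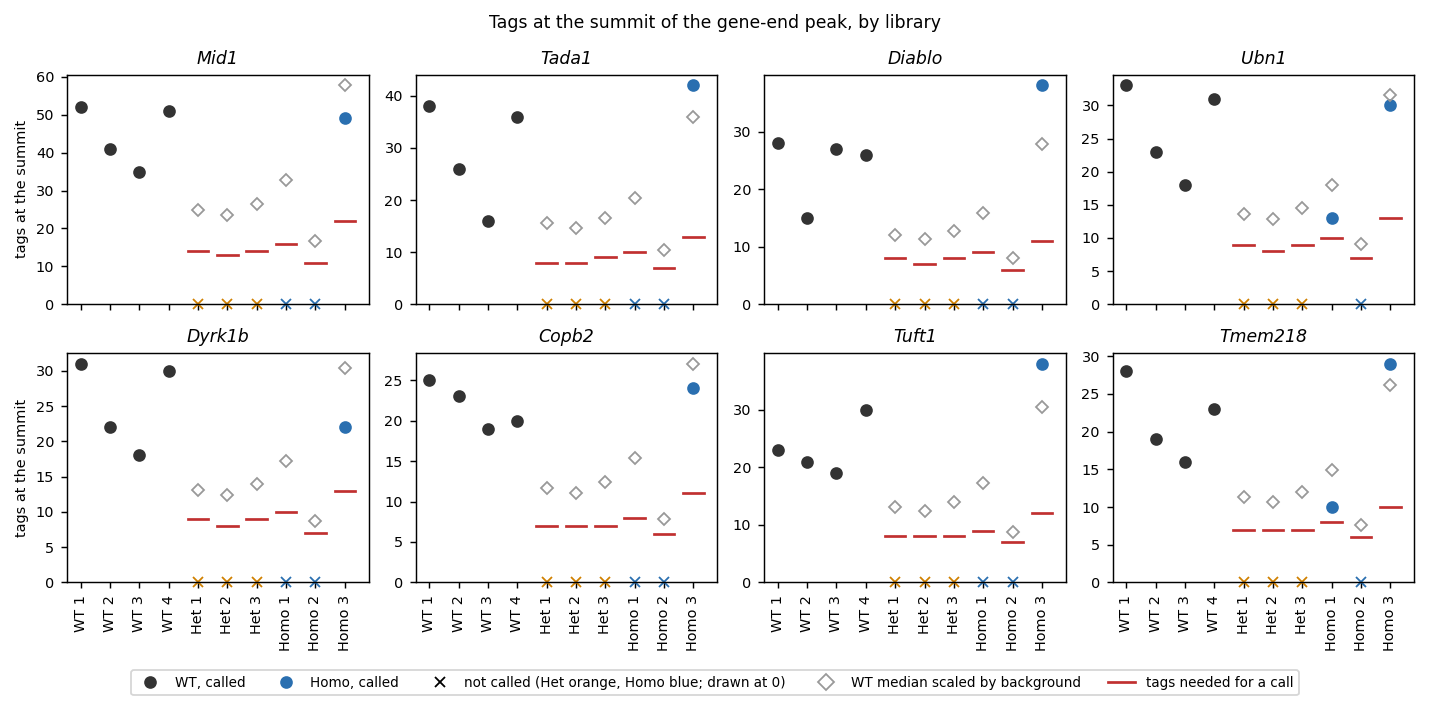
Tags at the summit of the gene-end peak of each gene in each library, with absent calls drawn at 0 as crosses, the WT median scaled by background pileup as diamonds and the tags needed for a call as red lines. WT values run from 15 to 52 tags, the 8 genes have a value in Homo 3, Ubn1 and Tmem218 have one in Homo 1, and no gene has one in the Het libraries.

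**Figure D3:**
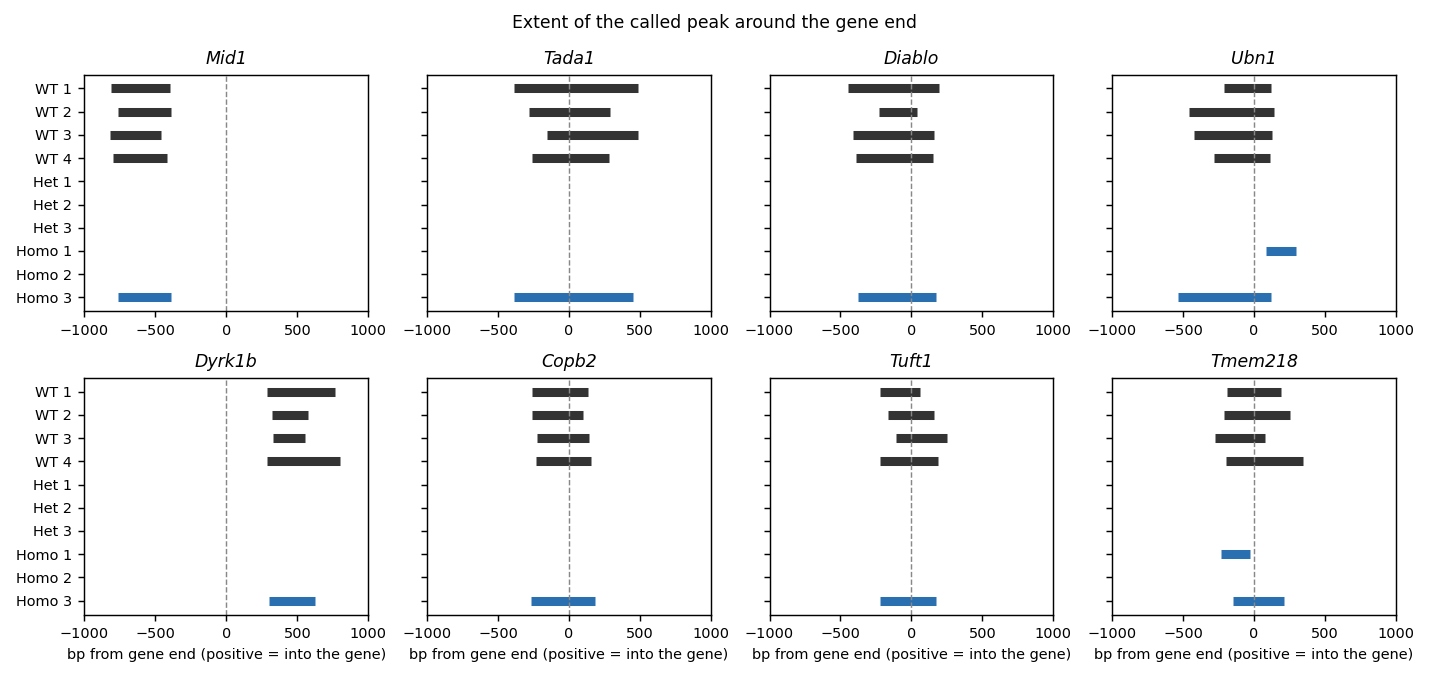
Extent of each gene-end peak by library, as distance in bp from the gene end it lies at. Mid1 peaks lie wholly beyond the end. Summits are not drawn: those of Dyrk1b lie 452 to 481 bp inside the gene. WT summits of the genes other than Mid1 and Dyrk1b lie within 311 bp of the end.

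Over the 32 pairs of a gene and a WT library, fold ran from 5.98 to 11.1 with a median of 7.92, and tags from 15 to 52 with a median of 25.5. By mean fold the order was Mid1 (6.34 ± 0.343), Dyrk1b (7.59 ± 0.887), Tuft1 (7.81 ± 0.952), Ubn1 (7.95 ± 1.59), Tmem218 (8.26 ± 1.31), Diablo (8.27 ± 1.36), Copb2 (8.34 ± 0.497) and Tada1 (8.61 ± 2.02), each as SD over n = 4. In 6 of the 7 neighbouring pairs the means differed by less than the larger SD, and the exception was Mid1 against Dyrk1b. Median fold of the 8 genes was 8.47, 7.42, 6.97 and 8.52 in WT 1 to WT 4, against 6.56, 6.75, 6.29 and 6.49 over all regions of each list. WT 1 and WT 4, the deepest WT libraries, had the higher values. Seen by rank, the 8 genes were above the middle of their list in 8, 7, 7 and 8 cases. A high WT rank was part of the rule, so both comparisons with the whole lists are largely set by it.

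Near the rank threshold, the lowest genes inside were Tmem218 with a median WT percentile of 79.0, Tuft1 with 79.2 and Copb2 with 79.3. Just outside with the same calls were Kifc2 and Cyhr1, which share a region at 78.9, and Hspa14 at 78.4. Besides Fbl (79.9), 1700030J22Rik at 81.1 had the same calls and lay above the lowest of the 8 genes. The threshold thus separates genes with nearly equal ranks.

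Of the 1169 genes called in 4 of 4 WT libraries at a median rank of at least that of Tmem218, 10 were called in 0 of 3 Het libraries, which is 0.855%. Of the same genes 51.9% were called in 3 of 3 Het libraries, and 96.5%, 89.7% and 56.8% in Het 1, Het 2 and Het 3. The share with no Het call fell with WT rank, from 27.5% at percentiles up to 20 to 4.43% between 60 and 80 and 0.392% between 80 and 90. Among genes above 90 it was 0.615%. The 8 genes are thus a few among strong gene ends that Het 1 and Het 2 mostly kept, and that Het 3 lost in many cases.

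**Figure D4:**
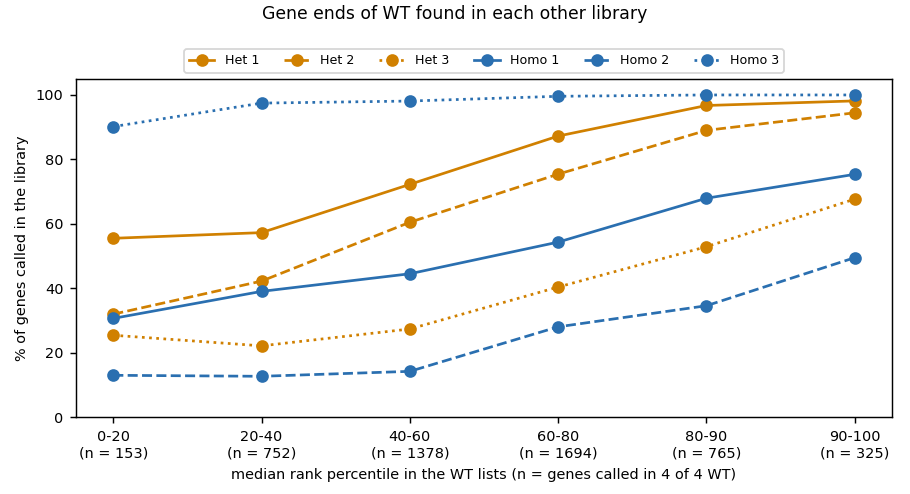
Share in percent of genes called in 4 of 4 WT libraries that were called in each Het and Homo library, by the WT rank percentile of the gene. Het 1 runs from 55.6% at the lowest ranks to 98.2% at the highest, Het 3 from 25.5% to 67.7%, and Homo 3 is at 90.2% or more in every range.

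An absent call means only that the list has no peak. The WT tags scaled to each Het library give a value to set beside it, with no test since WT values helped to choose the genes. Scaled by background pileup they gave 10.7 to 26.5 tags, and scaled by the signal of the shared regions 13.1 to 33.3 tags. A p-value past the lists' threshold needed 7 to 14 tags at the local background. Both scaled values exceeded the tags needed in 24 of 24 pairs of a gene and a Het library. They did so in 24 of 24 pairs with a Homo library too, including 16 pairs with Homo 1 or Homo 2, of which 14 had no call. High WT ranks were part of the choice, so these counts of pairs largely follow from it. The same count over all genes of like WT rank is not given here. Of all genes of like WT rank, Het 1, Het 2 and Het 3 called 96.5%, 89.7% and 56.8%, Homo 1 called 69.7% and Homo 2 called 38%. Why calls were absent was not tested. The lowest summits listed in Het 1, Het 2 and Het 3 had 7, 6 and 7 tags, and the lowest 5% of summits had at most 9. The lists hold no peak narrower than 200 bp, and tags below the threshold are not used here.

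Homo calls were not used by the rule. Homo 1 called 2 of the 8 genes (Ubn1 and Tmem218), against 26.1% of the 475 genes with 4 WT and 0 Het calls, 52.1% of the genes called in 4 of 4 WT, and 69.7% of those of like WT rank. Homo 2 called 0 of the 8, against 8.84%, 24% and 38%. Homo 3 called 8 of the 8, against 96%, 98.7% and 100%. Homo 1 and Homo 3 are thus near the background of genes missing from the Het lists, and Homo 2 gives too few calls to be read. Most of those 475 genes had lower WT ranks than the 8, with 185 at percentiles 20 to 40 and 168 at 40 to 60. Against genes of like WT rank, nearly all of which had a Het call, Homo 1 called fewer of the 8. Neither background matches the 8 genes in both WT rank and Het calls. In Homo 3, 3 of the 8 folds (Mid1, Diablo and Tuft1) were above the WT range, 5 were inside it and 0 were below. The tags in Homo 3 were above the 4 WT values for 4 genes, Tada1, Diablo, Tuft1 and Tmem218. Over all regions of its list, Homo 3 had a median fold of 6.94, against 6.29 to 6.75 in WT. Its signal in the shared regions was 1.18 of the WT median. The share of all genes above the WT values in Homo 3 is not given here, so these counts are not read as a trait of the 8 genes. The calls in the Homo group rest on Homo 3: without it, 2 of 10 calls remained.

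Across all 9218 genes, Fisher's exact test (two-sided) of gene-end calls with Benjamini-Hochberg adjustment called 0 genes in Homo against WT, 0%. Unadjusted, 29 genes had p under 0.05, with a smallest p of 0.0286. That is the lowest value 4 against 3 libraries allow, so the 0% cannot be read as an absence of differences. Homo against Het also gave 0%, with 0 genes at an unadjusted p under 0.05, since 3 against 3 libraries cannot go below 0.1. Calls in 4 of 4 WT and 0 of 3 Homo libraries were found for 28 genes (0.304%), and calls in 3 of 3 Homo and 0 of 3 Het libraries for 30 genes (0.325%). None of the 8 genes is among them, as each had 1 or 2 Homo calls.

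Peaks near the genes served as local controls. Within 10 kb of the 8 genes lay 7 further regions: 4 at Mid1 and 1 each at Diablo, Dyrk1b and Tuft1. Tada1, Ubn1, Copb2 and Tmem218 had none. Of the 7, WT 1 to WT 4 called 4, 3, 4 and 4, Het 1 to Het 3 called 2, 2 and 1, and Homo 1 to Homo 3 called 1, 1 and 4. Het libraries were below WT here, and Homo 3 equalled the highest WT value. At Mid1 these counts take only peaks placed on X. The control region beyond the Mid1 end was called in 1 of 3 Het libraries on X and 2 of 3 on Y. In WT it was called in 3 of 4 on each. The control region inside Mid1 was called in 3 of 3 Het libraries on X and 2 of 3 on Y. The groups met in wider or narrower sets: within 25 kb, WT called 9, 6, 7 and 7 of 14 regions and Het 6, 3 and 2. For the 3 regions away from Mid1, WT called 2, 2, 1 and 1 and Het 1, 0 and 0. The mean was 3.75 ± 0.5 in WT (SD, n = 4) and 2 ± 1.73 in Homo (SD, n = 3). The difference of -1.75 did not pass an exact two-sided permutation test (p = 0.257, where 35 splits allow no less than 0.0286).

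The regions differed in how they held up in Het. The Mid1 region 3990 bp inside from the missing peak (chromosome X, 169986850 to 169987201) was called in 4 of 4 WT, 3 of 3 Het and 2 of 3 Homo libraries. Its folds were 6.37, 5.35, 6.44 and 6.50 in WT and 8.82, 6.05 and 5.59 in Het, so the groups overlapped. It too has a counterpart on Y. At Diablo, a region at the ends of B3gnt4 and Lrrc43 was called in 4 WT, 1 Het and 1 Homo library. At Dyrk1b, a region by the lower end of Fbl was called in 2 WT, 0 Het and 1 Homo library, and the WT 1 peak in it lay beyond 1000 bp from that end. Controls near 4 of the 8 genes are thus absent, and the controls that exist are mostly from Mid1.

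The nearest peak in a Het list lay 4053 to 744212 bp from the gene-end region, with a median of 121751 bp over 24 pairs. It lay within 50 kb in 7 of 24 pairs, against 19 of 32 in WT, where the median was 37561 bp. Het lists thus give few neighbours to judge these loci by. Those within reach included a region at the Glyr1 and Rogdi ends, 35760 bp from the Ubn1 peak, with 14 tags in Het 1. The end of Snx27, 75823 bp from the Tuft1 peak in Het 1, was called in 3 of 3 Het libraries.

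Genes that work with the 8 were taken from lists of their complexes and pathways, 97 partner genes in all. Of these 46 were called in 4 of 4 WT libraries, and 5 of the 46 (10.9%) in 0 of 3 Het, against 9.37% of all genes called in 4 of 4 WT. Called in 4 of 4 WT and 3 of 3 Het were 19 of the 46 (41.3%), against 28.1%. Their median WT rank was 66.8, against 62.9 for all such genes. The share with the WT-only pattern is near the background.

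By list, SAGA partners of Tada1 had 12 of 18 genes called in 4 of 4 WT and 0 of those missing from every Het list. Usp22, its deubiquitinase, and Eny2 were called in 4 WT and 3 Het libraries. The HIRA list of Ubn1 had 5 of 6 in WT and 0 missing. Among them were Asf1a, another histone chaperone, and Ubn2, the paralogue of Ubn1, each with calls in 4 WT and 3 Het libraries. The COPI list of Copb2 had 5 of 9 and 0 missing. The list of DYRK, HIPK and CLK kinases for Dyrk1b had 5 of 11 and 0 missing, and Dyrk1a was the only DYRK gene among the 5. In the apoptosis list of Diablo 7 of 18 were called in 4 WT and 1 was missing from Het, Casp9, the initiator caspase of the mitochondrial pathway. Htra2, which like Diablo leaves mitochondria and binds IAP proteins, was called in 4 WT and 3 Het libraries.

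The list for Mid1 had 3 of 10 in WT and 1 missing, Ppp2cb, a catalytic subunit of protein phosphatase 2A, while Ppp2ca, the other one, was called in 3 of 3 Het libraries. The transition-zone list of Tmem218 had 9 of 18 in WT and 3 missing: Tmem237, B9d1 and Ahi1. In the tuftelin list 0 of 7 were called in 4 WT. The median WT ranks of the 5 missing partners were 33.4 to 48.9, all lower than those of the 8 genes.

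The genes with the profile of rank percentiles most like the median of the 8, over 10 libraries with absent calls as 0, were Ano10, Garem1 and Hnrnpm. Their mean absolute differences were 4.35, 4.46 and 4.63 percentile points. Each was called in 1 Het library, at percentile 4.81 in Het 2 for Ano10, 15.5 in Het 1 for Garem1 and 31.5 in Het 3 for Hnrnpm. They were picked for this likeness, which is a description.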

How the data were processed

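ATAC-seq peak lists of 10 tumour libraries were analysed. Per the submitters' processing notes, Bowtie2, MACS2, deepTools and the mm10 build were used; their versions and settings are not stated there. Each deposited list gives, per peak, a score, a fold enrichment over background (ratio) and the −log10 p-value; all 3 are the authors' values. The score was used only to check the −log10 p column. Tags at the summit and local background were computed from fold and −log10 p, with whole tags recovered for 100% of the peaks within 0.001 of −log10 p. The smallest background shared by at least 10 peaks served as the depth.

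Calculations used Python 3.11.15, numpy 2.4.6, pandas 2.3.3, scipy 1.17.1 and matplotlib 3.10.9. Gene ends came from RefSeq (GRCm38.p6, the assembly of mm10). A gene was called in a library by a peak within 1000 bp of either end. Rank percentiles are within each list by −log10 p. Homo and WT calls were compared by Fisher's exact test with Benjamini-Hochberg adjustment, and control counts by exact permutation. Recovery of tags was tested on simulated data.

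The 8 genes, lists and tests were chosen with earlier results of these data known. Named besides the 8 are Fbl, genes at local control regions, genes with the same calls next to the rank threshold, the 3 most alike, partners called in all WT and no Het list, and further partners and neighbours chosen after their values were seen. Alternatives were a −log10 p of at least 7, thinning to equal background pileup, other windows and leaving out each library. WT and Homo share replicate numbers. Deviations of same-numbered libraries over 5067 genes correlated at -0.124, -0.0330 and -0.172, and those of differently numbered libraries at -0.0408 to 0.163. With so few libraries these values cannot settle pairing, and the main tests used none.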

Additional observations from a re-analysis of the deposited data

Results flagged for a closer look

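The Diablo peak in WT 2 ranked at percentile 30.8 of its list, far below 85.7 to 96.1 in the other 3 WT libraries. The gap to the nearest of them was 0.840 of the range. WT ranks helped to choose the genes, so this is a description and not a test. Of 16 groups of values screened for a library far from the rest, this was the 1 found, and chance alone marks about 1 in 20.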

How the results depend on the processing

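After thinning to the background pileup of Homo 2, which does not make the signal of shared regions equal, 2 of the 8 genes (Mid1 and Tada1) kept calls in 4 of 4 WT libraries, and 96 of all genes had calls in 4 WT and 0 Het lists. In 20 further draws, added after seeing the data, a median of 4 of the 8 genes (3 to 7) kept calls in 4 of 4 WT, from 7 draws for Diablo and Tuft1 to 18 for Mid1. Absent Het calls stay absent by construction. Leaving out a library gave 515 to 1232 genes with the pattern, with 826 without WT 3, 1232 without Het 1 and 836 without Het 2. The Homo calls of the 8 genes ranged from 2 without Homo 3 to 10. Genes at an unadjusted p under 0.05 in Homo against WT rose from 29 to 118 after thinning and were 0 without any single WT or Homo library, where fewer libraries allow no such p.

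The difference in control regions called, Homo against WT, stayed negative in 13 of 13 alternatives and passed the threshold in 0; with any WT or Homo library left out no split can pass it. It was -2.75 (without Homo 3, exact permutation p = 0.0667, the smallest possible) to -1.25 with a library left out. By exact permutation it was -1.58 thinned (p = 0.114) and -2.92 within 25 kb (p = 0.286). Where a peak had to overlap 50% or more of the region it was -1.25 (exact permutation p = 0.314). Without the Mid1 regions, an alternative added after seeing the data, it was -0.5 (exact permutation p = 0.771). With the replicate block (exact sign-flip test) it was -1.67 with an exact p = 0.5, and 3 pairs cannot pass the threshold. Other windows, the summit rule and the stricter p-value left 8 of 8 genes and 454 to 498 genes in all with the pattern.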
